A study of Mus musculus with 6 samples.

Results

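The Fos, Jun and small Maf genes encode the leucine zipper proteins that pair to form AP-1 and related transcription factors. They were read out here from 14 array probes, all the probes of the array that carry the name of 1 of these 10 genes, out of 55681 distinct probes apart from controls. The 14 probes comprise 4 for Mafg, 2 for Fosl2 and 1 each for Fos, Fosb, Fosl1, Jun, Junb, Jund, Maff and Mafk. RNA came from whole livers taken 2 h after an oral dose, and all mice were of the inbred strain C57BL6/J. The treated group is 3 mice given CBZ, a compound that the labels name only by these letters, at 250 mg/kg. The control group is 3 mice given DMSO (dimethyl sulfoxide, a solvent), and whether CBZ was dissolved in DMSO is not given in the sources used here. The age and sex of the mice are not given in the sources used here. Each liver was hybridised to its own 1-colour Agilent array, and a mouse is named below by its group and its replicate number.

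Fos proteins (Fos, Fosb, Fosl1, Fosl2) cannot pair with themselves and bind DNA as partners of Jun proteins (Jun, Junb, Jund), which also pair with one another. The pairs bind the AP-1 site and the closely related cAMP response element, and many stimuli switch the genes on within minutes, so that Fos and Jun are the classical immediate early genes. The small Maf proteins (Maff, Mafk, Mafg) have a leucine zipper but no activation domain of their own, and they serve as partners of factors such as NRF2 and BACH1 at antioxidant response elements. In liver, Jun is known for its part in hepatocyte survival and regeneration.

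The share of spots well above background ran from 42.6% to 45.8% over the 6 arrays, and the 75th percentile of the signal from 158 to 191 intensity units. The RNA was that of liver by its markers: all 10 hepatocyte genes looked up, among them Alb and Ttr, were well above background on all 6 arrays. Their summed signal, in multiples of each array's 75th percentile, was 7288 to 7585 in DMSO and 7112 to 8215 in CBZ mice. Of the Kupffer cell and macrophage markers 9 of 10 were well above background on all arrays, with sums of 134 to 298 in DMSO and 175 to 213 in CBZ. The sums were 62.9 to 99.2 against 70.5 to 92.9 for endothelial cells (7 of 8 markers) and 202 to 237 against 190 to 302 for stellate cells and fibroblasts (7 of 9). They were 2.46 to 3.76 against 3.40 to 4.53 for cholangiocytes (2 of 6, with Cftr and Epcam well above background on no array), and 5.80 to 6.32 against 6.18 to 6.61 for lymphocytes (3 of 8, with Cd3g, Cd8a, Ms4a1 and Ncr1 on none). For neutrophils (2 of 7, with Cxcr2 and Mpo on none) they were 1.79 to 5.62 against 3.52 to 4.02. In every one of these lists the range in CBZ overlapped that in DMSO. In whole liver, fewer cells of a type and less RNA per cell cannot be told apart, and the part of cell makeup in the values below was not tested.

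At 2 h the AP-1 and small Maf transcripts of CBZ-treated livers did not move as 1 group. Fosl2 and Jun were higher in all 3 CBZ mice than in any DMSO mouse, Junb was lower in all 3, and all 4 probes of Mafg had a lower mean in CBZ. None of these differences passed limma's moderated test with Benjamini-Hochberg adjustment over the whole array. Of the 14 probes 10 were bright enough to be tested, that is, detected well above background in all 3 mice of either group, and they stand for 7 genes. Limma called 0 of the 10 at an adjusted p under 0.05, where it called 0.0626% of the 22352 probes tested. At an unadjusted p under 0.05 there were 3 of 10 (Fosl2, Junb and Jun), against 9.38% of all probes. The groups did not overlap for 4 of 10, against 13.2% of all probes. CBZ was above DMSO for 2 of these (6.25% of all probes) and below for 2 (7%). An intensity trend with robust variances called 1 of the 10, that of Fosl2, and 0.778% of all probes. The plot of every tested probe by mouse shows these values.

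**Figure D1:**
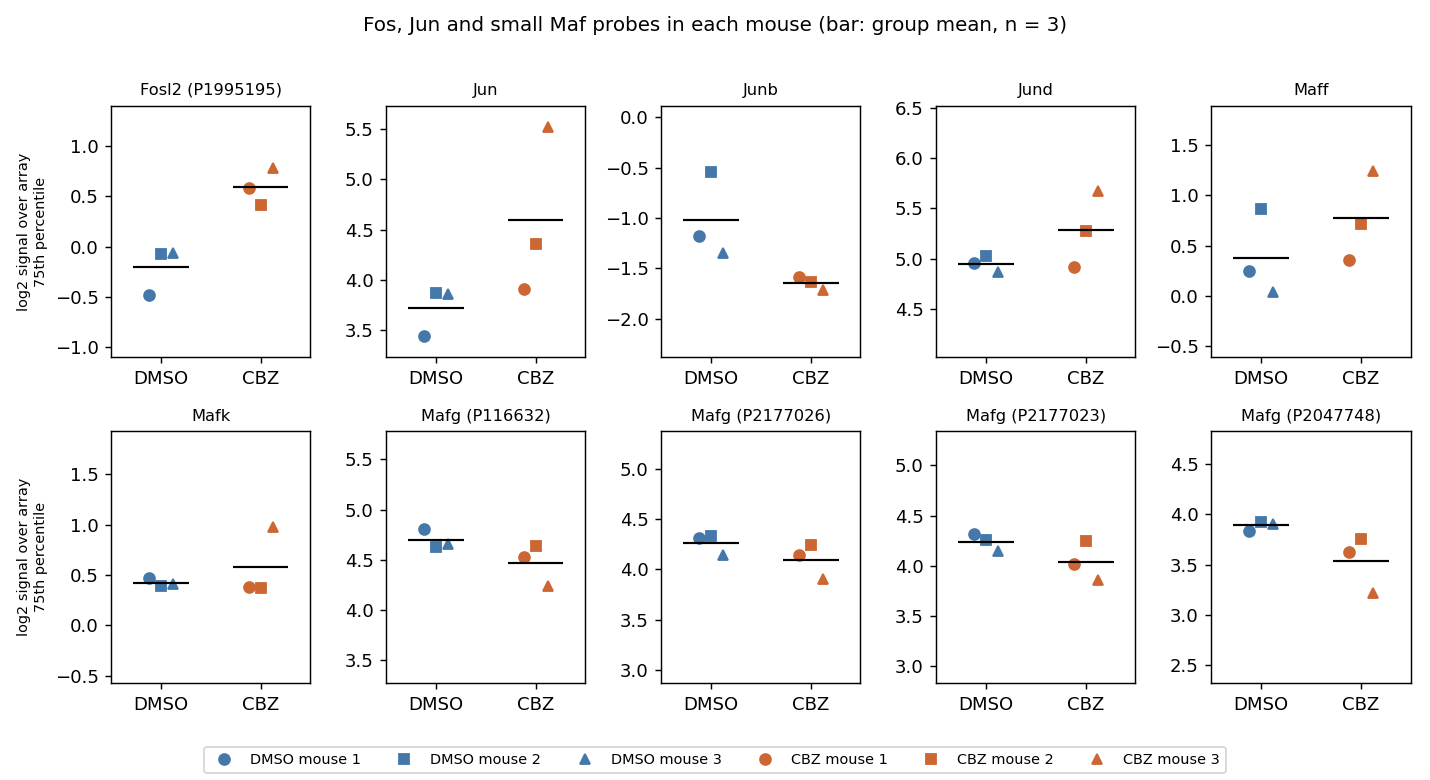
Log2 signal over the array's 75th percentile (y axis; each panel spans the same height) for the 10 tested probes in the 3 DMSO (blue) and 3 CBZ mice (orange); symbols mark the mice and bars the group means, and the last part of the array's probe name is given where a gene has several probes. CBZ mouse 3, the orange triangle, is the highest or the lowest of the 6 mice in all 10 panels.

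Among the Fos genes, only Fosl2, which encodes FRA-2, had a probe bright enough to be tested. Its bright probe (A_55_P1995195; mm9 chromosome 5, 32460076 to 32460135, plus strand) had a processed signal of 129, 166 and 165 intensity units in DMSO mice 1, 2 and 3. In CBZ mice 1, 2 and 3 it was 275, 211 and 329. The lowest CBZ mouse therefore lay above the highest DMSO mouse. After scaling, Fosl2 was 1.74-fold higher in CBZ (log2 fold change 0.80 ± 0.17 SE, 95% interval 0.42 to 1.18, n = 3 mice per group), with an adjusted p of 0.17 in limma. It stood at rank 139 of the 22352 probes by p. With the intensity trend and robust variances limma's adjusted p was 0.025, and over all alternatives it ran from 0.025 to 0.81. Background correction by normexp lowered the log2 fold change to 0.51 (limma's adjusted p = 0.096).

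A further probe of Fosl2 (A_51_P507242; chromosome 5, 32455088 to 32455147, plus strand) was well above background on no array. It lies upstream of the tested probe on the same strand and is shown as the other probe of this gene:
Fosl2 probe A_51_P507242: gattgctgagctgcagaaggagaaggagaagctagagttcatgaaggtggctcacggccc
Its signal was 10.1, 10.8 and 15.8 in DMSO mice and 29.6, 9.28 and 52.5 in CBZ mice 1, 2 and 3. CBZ mice 1 and 3 were above all DMSO mice, and after scaling CBZ mouse 2 lay within the DMSO range. No fold is given for this probe, since it was not well above background on any array of either group. Its values are therefore not read as a change in Fosl2.

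Fos itself, the founding immediate early gene of the family, was close to background at this time. Its probe (A_52_P262219; chromosome 12, 86817900 to 86817959, plus strand) gave 21.2, 25.6 and 21.1 in DMSO mice and 15.1, 17.5 and 55.4 in CBZ mice 1, 2 and 3. It was well above background in CBZ mouse 3 alone, and the other 5 mice were below the lowest signal that counted as well above background on their arrays (33.3 to 53.1). Fosb, a Fos relative best known from stimulated neurons (A_55_P2113051; chromosome 7, 19888168 to 19888227, minus strand), gave 44.7, 67.1 and 70.1 in DMSO and 75.2, 36.1 and 69.6 in CBZ. It was well above background on 2 of 3 arrays in each group, and the groups overlapped. Fosl1, which encodes FRA-1 (A_51_P308796; chromosome 19, 5455496 to 5455555, plus strand), gave 22.5, 28.1 and 36.5 in DMSO and 26.4, 18.2 and 10.74 in CBZ, and was well above background on no array. For Fos, Fosb and Fosl1, signal over background limits what can be said, beside the number of mice.

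**Figure D2:**
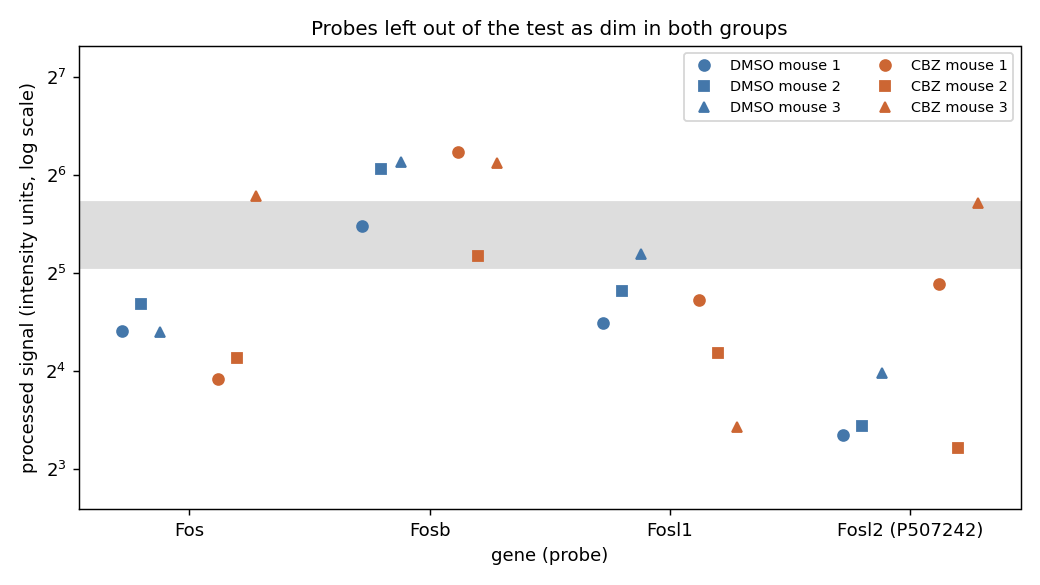
Processed signal (y axis, log scale) of the 4 probes left out of the test, in the 3 DMSO (blue) and 3 CBZ mice (orange). The grey band is the range over the arrays, 33.3 to 53.1, of the lowest signal counted as well above background, which also depends on the noise around each spot; Fos in CBZ mouse 3, at 55.4, stands above it and the other 5 Fos values lie below it.

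Of the Jun genes, Jun, which encodes the best known AP-1 subunit, differed most in size and also varied most between mice. Its probe (A_55_P2158990; chromosome 4, 94716928 to 94716987, minus strand) had a processed signal of 1956, 2550.3 and 2510.05 in DMSO mice 1, 2 and 3. In CBZ mice 1, 2 and 3 it was 2769, 3244 and 8787. The groups did not overlap, but CBZ mouse 1 lay close to DMSO mice 2 and 3 while CBZ mouse 3 was 3.47-fold above the DMSO mean. Jun was 1.83-fold higher in CBZ on average (log2 fold change 0.87 ± 0.36 SE, 95% interval 0.05 to 1.69), with an adjusted p of 0.50 in limma. The SD of the log2 signal was 0.83 among CBZ and 0.24 among DMSO mice. Without CBZ mouse 3 the log2 fold change was 0.41 (limma's adjusted p = 0.86).

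Junb, a Jun relative that acts as activator or repressor depending on its partner, went the other way. Its probe (A_55_P2011106; chromosome 8, 87501881 to 87501940, minus strand) gave 79.2, 119 and 68.1 in DMSO mice and 61.4, 51.0 and 58.0 in CBZ mice. All 3 CBZ mice were below all 3 DMSO mice, and the CBZ mice lay close together (SD 0.070 on the log2 scale) while the DMSO mice did not (SD 0.42). The CBZ signals were near the lowest signals counted as well above background on the arrays of CBZ mice 1, 2 and 3 (53.1, 33.3 and 43.6). Signal over background therefore limits what can be said of Junb too. Junb was 1.54-fold lower in CBZ (log2 fold change -0.62 ± 0.20 SE, 95% interval -1.08 to -0.16), with an adjusted p of 0.37 in limma. With normexp the log2 fold change was -0.29 (limma's adjusted p = 0.48), and without DMSO mouse 2 it was -0.38 (limma's adjusted p = 0.85).

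Jund, the Jun gene that many resting cells transcribe steadily (A_51_P357744; chromosome 8, 73224436 to 73224495, plus strand), gave 5568, 5682 and 5057 in DMSO mice. In CBZ mice it gave 5565, 6106 and 9729.5. CBZ mouse 1 lay within the DMSO range, and CBZ mouse 3 was 1.65-fold above the DMSO mean. The log2 fold change was 0.34 ± 0.19 SE (limma's adjusted p = 0.69). It was 0.14 without CBZ mouse 3 and 0.52 without CBZ mouse 1.

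The promoters of Jun, Fosl2 and Junb are shown because these are the genes other than Mafg whose groups did not overlap. Each is the 250 bases before the RefSeq start on GRCm38.p6, read on the gene's strand. Capitals mark matches, on either strand, to TGANTCA (the AP-1 site), TGACGTCA (the cAMP response element), TGACATCA (the Jun and ATF site through which Jun is known to act on its own gene), CCAAT, the CArG box of serum response factor, or TATAAA. No match of one of these motifs overlapped a match of another.
Jun, chr4:95052223-95052472, minus strand: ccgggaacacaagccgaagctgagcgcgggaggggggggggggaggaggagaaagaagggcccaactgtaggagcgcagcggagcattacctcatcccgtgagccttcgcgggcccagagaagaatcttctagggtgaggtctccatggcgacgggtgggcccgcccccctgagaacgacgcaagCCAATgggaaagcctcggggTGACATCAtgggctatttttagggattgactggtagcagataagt
Fosl2, chr5:32136222-32136471, plus strand: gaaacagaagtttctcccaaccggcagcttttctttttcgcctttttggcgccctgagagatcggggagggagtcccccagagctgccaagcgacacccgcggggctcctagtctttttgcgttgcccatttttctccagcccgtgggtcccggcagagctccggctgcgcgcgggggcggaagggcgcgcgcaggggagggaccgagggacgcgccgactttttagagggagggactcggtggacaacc
Junb, chr8:84978749-84978998, minus strand: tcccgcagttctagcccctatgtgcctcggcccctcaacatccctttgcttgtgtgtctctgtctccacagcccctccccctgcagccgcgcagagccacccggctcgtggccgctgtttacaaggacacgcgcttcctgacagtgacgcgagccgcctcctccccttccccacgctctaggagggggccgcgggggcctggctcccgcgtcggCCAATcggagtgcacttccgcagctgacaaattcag
The Jun window held TGACATCA at 45 to 38 bases before the start and CCAAT at 65 to 61, the Junb window held CCAAT at 36 to 32, and the Fosl2 window held none of the 6 motifs. Of the 32851 such windows of all genes, 2.93% held TGACATCA and 33.9% CCAAT. Over the 11 windows of 9 of the 10 genes, TGACATCA was also in 1 of the Maff windows, TGACGTCA (1.55% of all windows) in another Maff window, TATAAA (12.4%) in that of Fos, and TGANTCA (6.75%) and the CArG box (1.47%) in none. Sites more than 250 bases before a start, or after it, lie outside these windows and were not looked for. These matches describe letters and were not tested for binding.

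The small Maf genes gave log2 fold changes between -0.35 and 0.39. All 4 probes of Mafg, which encodes a small Maf partner of NRF2, had lower means in CBZ, with log2 fold changes of -0.17 to -0.35. The probe with the largest difference (A_55_P2047748; chromosome 11, 120486465 to 120486524, minus strand) gave 2561, 2645 and 2597 in DMSO mice and 2264, 2143 and 1784 in CBZ mice. The groups did not overlap at this probe, where Mafg was 1.28-fold lower (log2 fold change -0.35 ± 0.16 SE, limma's adjusted p = 0.55). At the brightest probe (A_66_P116632; chromosome 11, 120489919 to 120489978, minus strand) the signal was 5049, 4287 and 4366 in DMSO and 4256, 3951 and 3619.7 in CBZ. After scaling, CBZ mouse 2 lay within the DMSO range there, and the log2 fold change was -0.23 ± 0.15 SE (limma's adjusted p = 0.77). The remaining 2 Mafg probes, at chromosome 11, 120490566 to 120490625 and 120490321 to 120490380, were at -0.17 ± 0.14 and -0.20 ± 0.14, with overlapping groups. These 4 probes share 1 gene and the same RNA, so they are not independent. Without CBZ mouse 3 their log2 fold changes were -0.07 to -0.20, and without CBZ mouse 2 they were -0.24 to -0.47.

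Maff, an inducible small Maf (A_52_P608322; chromosome 15, 79189442 to 79189501, plus strand), gave 213, 316 and 177 in DMSO and 236, 259.6 and 452 in CBZ. The groups overlapped, with DMSO mouse 2 above CBZ mice 1 and 2, and the log2 fold change was 0.39 ± 0.27 SE (limma's adjusted p = 0.80). Mafk, the small Maf first known from the erythroid factor NF-E2 (A_55_P1953241; chromosome 5, 140278221 to 140278280, plus strand), gave 249, 228 and 229 in DMSO and 239, 205 and 378 in CBZ. Only CBZ mouse 3 stood apart, 1.47-fold above the DMSO mean, and the log2 fold change was 0.16 ± 0.18 SE (limma's adjusted p = 0.92). With 1 mouse left out the log2 fold change of Maff was 0.16 without CBZ mouse 3, 0.22 without DMSO mouse 3, 0.60 without CBZ mouse 1 and 0.63 without DMSO mouse 2. That of Mafk was -0.05 without CBZ mouse 3 and 0.26 without either other CBZ mouse.

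CBZ mouse 3 marked every one of the tested probes. It was the highest of the 6 mice for Fosl2, Jun, Jund, Maff and Mafk and the lowest for Junb and all 4 Mafg probes, which makes 10 of 10 probes, or 7 of 7 genes. Over all probes tested it was the highest for 13.8% and the lowest for 20.9%, together 34.7%. This pattern was noticed after the values were seen and was given no test. Without this mouse Fosl2 kept a log2 fold change of 0.70 and Junb -0.58, while Jun, Jund, Maff and Mafk were at 0.41, 0.14, 0.16 and -0.05. Its array had the highest 75th percentile (191) and the highest share of spots well above background (45.8%) of the 6. Its stellate cell sum of 245 and hepatocyte sum of 7226 lay just outside the DMSO ranges and its other marker sums lay within them. The part of these in the pattern was not tested.

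The arrays of CBZ mice 2 and 3 lay in row 2 of the slide and the other 4 in row 1. With the row as a covariate, the difference is that of CBZ mouse 1 alone from the mean of the 3 DMSO mice, so it is given as a value and not as a test of the groups. Fosl2 was then at 0.79, Junb at -0.56 and Jun at 0.19 on the log2 scale. Jund was at -0.03, Maff at -0.02 and Mafk at -0.04, so the direction of these 3 turned, and the Mafg probes were at -0.12 to -0.27. The 2 arrays of row 2 are both CBZ, so there is no comparison within that row, and row and mouse cannot be told apart.

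**Figure D3:**
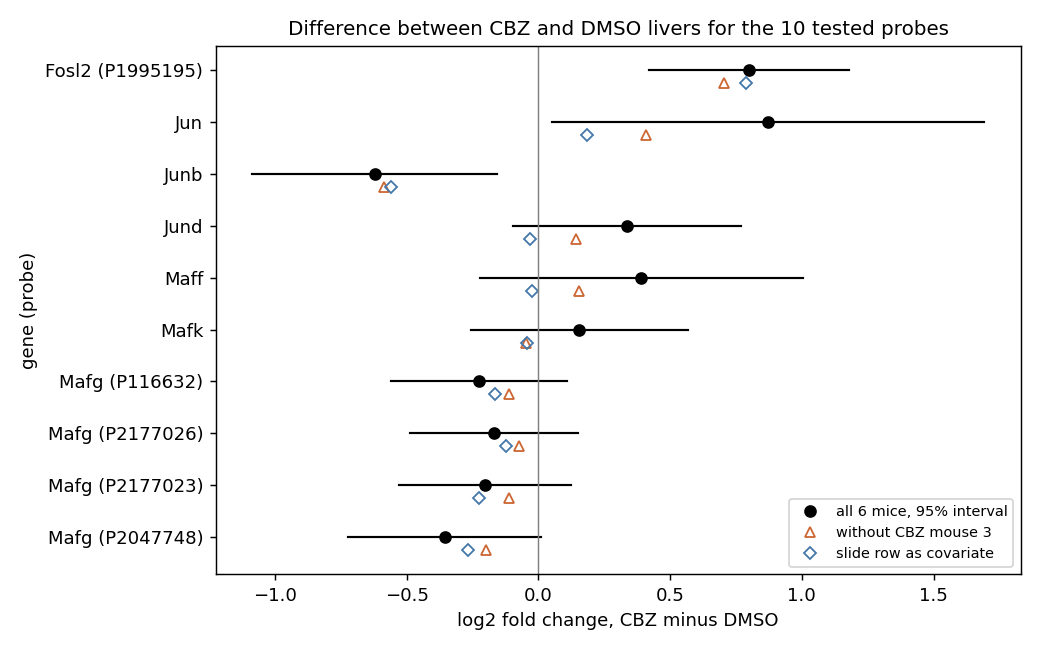
Log2 fold change, CBZ minus DMSO (x axis), of the 10 tested probes (y axis), with the moderated 95% interval over all 6 mice (black). Orange triangles leave out CBZ mouse 3 and blue diamonds have slide row in the model and so compare CBZ mouse 1 with the DMSO mice. Fosl2 lies between 0.70 and 0.80 and Junb between -0.56 and -0.62 in all 3, while Jun goes from 0.87 to 0.41 and 0.19.

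Likeness to Jun was the root mean square difference of the log2 signals over the 6 mice, after each probe's mean was subtracted. Only tested probes matched to RefSeq were ranked, without the members and without Rik, Gm and LOC names. The closest was Cxadr, which encodes a cell adhesion receptor (0.11). Sds, the serine dehydratase gene, and Hbp1, a transcriptional repressor gene, came next (0.19 and 0.24). The SD of Jun itself over the 6 mice was 0.73. With so many probes and 6 mice some close match is to be had for almost any pattern, so this is a description. In CBZ Cxadr was at 0.88 ± 0.35, Sds at 0.86 ± 0.28 and Hbp1 at 0.97 ± 0.28, with limma's adjusted p of 0.47, 0.37 and 0.31. These genes were picked for their likeness to Jun on the same arrays, so fold changes near that of Jun follow from the choice.

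The genes around AP-1 were read out by role, each gene by its brightest probe, from lists set out with earlier results of these data known. Of 17047 genes tested, limma called 0.0528%, 12.9% had groups that did not overlap, and the median log2 fold change was -0.0043. Over the 6 lists 2 genes passed, Gadd45b and Myc, and both stand in the list of other immediate early genes. With 1 mouse left out the number was 0 without DMSO mouse 3 or CBZ mouse 2, 1 without DMSO mouse 1, DMSO mouse 2 or CBZ mouse 3, and 3 without CBZ mouse 1.

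Among other leucine zipper factors that pair with Fos, Jun or Maf proteins or share their sites, 14 of 20 were measured, 6 higher and 8 lower, with a median of -0.06 and 0 called. The groups did not overlap for 3 of 14, against 12.9% of all genes, and all 3 were lower in CBZ. They were Atf4, the effector of the integrated stress response (-0.46 ± 0.14), Nfe2l2, which encodes NRF2 (-0.39 ± 0.18), and Bach1, a repressor that competes with NRF2 for small Maf partners (-0.35 ± 0.16). Nfe2l2 gave 1579, 1568 and 1392 in DMSO and 1412, 1161 and 963 in CBZ. Before scaling, CBZ mouse 1 lay above DMSO mouse 3 for Nfe2l2, and only after scaling were the groups apart. Crem, of the cAMP-responsive family, was at -0.38 ± 0.16 with overlapping groups. Limma's adjusted p was 0.32 for Atf4, 0.56 for Nfe2l2, 0.57 for Bach1 and 0.49 for Crem.

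Of the genes bound by small Maf pairs, 17 of 20 were measured, 9 higher and 8 lower, with a median of 0.0038 and 0 called. Osgin1, an NRF2-responsive growth inhibitor gene, gave 13892.5, 13378 and 10943 in DMSO and 10344, 7736 and 6295 in CBZ, and was at -0.68 ± 0.21. Srxn1, the sulfiredoxin gene, went the other way at 0.33 ± 0.14. The groups did not overlap for 2 genes with CBZ above and 2 with CBZ below, against 12.9% of all genes. Osgin1 and Srxn1 were among these, with limma's adjusted p of 0.33 and 0.51. Bach1 stands in this list too and was 1 of those below.

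Of the kinases and phosphatases upstream of AP-1, 21 of 24 were measured, 8 higher and 13 lower, with a median of -0.03 and 0 called. Dusp6, an ERK phosphatase, was at -0.64 ± 0.23, Map2k6, a p38 kinase kinase, at 0.58 ± 0.25, and Map3k1, which feeds the JNK pathway, at 0.33 ± 0.14. In this list the groups did not overlap for 1 gene with CBZ above, Map3k1, and for 1 with CBZ below, against 12.9% of all genes. Of the factors that act on the Fos and Jun promoters, 12 of 14 were measured, 4 higher and 8 lower, with a median of -0.06 and 0 called. Mrtfb, a coactivator of serum response factor, was at 0.31 ± 0.13, Hdac3, a corepressor, at -0.45 ± 0.27, and Srf itself at -0.25 ± 0.19. Mrtfb was the 1 gene of this list whose groups did not overlap. Limma's adjusted p was 0.41 for Dusp6, 0.51 for Map2k6, 0.52 for both Map3k1 and Mrtfb, 0.72 for Hdac3 and 0.83 for Srf.

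Of the AP-1 target genes only 6 of 20 were measured, 3 higher and 3 lower, with a median of 0.08 and 0 called. Ccnd1, the cyclin D1 gene, gave 637, 721 and 285 in DMSO and 913, 706 and 1484 in CBZ, at 0.94 ± 0.35. After scaling its 3 CBZ mice were above all DMSO mice, and CBZ mouse 3 was again the highest. Ets1, a transcription factor gene, was at 0.27 ± 0.18 and Spp1, the osteopontin gene, at 0.31 ± 0.22. Limma's adjusted p was 0.43, 0.78 and 0.80 for these 3.

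The log2 fold changes of the other immediate early genes ran from -1.55 for Egr1, a zinc finger factor gene, to 2.95 for Gadd45b. Of 26 genes 18 were measured, 13 higher and 5 lower, with a median of 0.58. The groups did not overlap for 11 of 18, 8 above and 3 below, against 12.9% of all genes. Myc gave 108, 77.0 and 104 in DMSO and 329, 221 and 369 in CBZ, and rose by 1.64 ± 0.18 (limma's adjusted p = 0.030). Gadd45b, a stress-inducible gene, gave 470.3, 432 and 485 in DMSO and 2933, 2967 and 5375 in CBZ, and rose by 2.95 ± 0.20 (limma's adjusted p = 0.0056). Ccn1, which encodes a matricellular protein, was at -1.10 ± 0.15 and missed the threshold (limma's adjusted p = 0.056), which it passed under 6 alternatives, also lower in CBZ. Egr1 passed it under 3 and Myc under 7, and each of these counts holds median scaling and the deposited table that repeats it. With 1 mouse left out, Myc passed only without CBZ mouse 1. A gene was measured if detected in all 3 mice of either group, so a dim gene could enter through the group where it was high. The dimmest of the 18, Klf4 and Gadd45a, were both higher in CBZ (1.04 ± 0.23 and 1.90 ± 0.43). The list was also drawn up with the calls for Gadd45b and Myc known. Its counts and median are therefore no independent evidence of a direction.

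**Figure D4:**
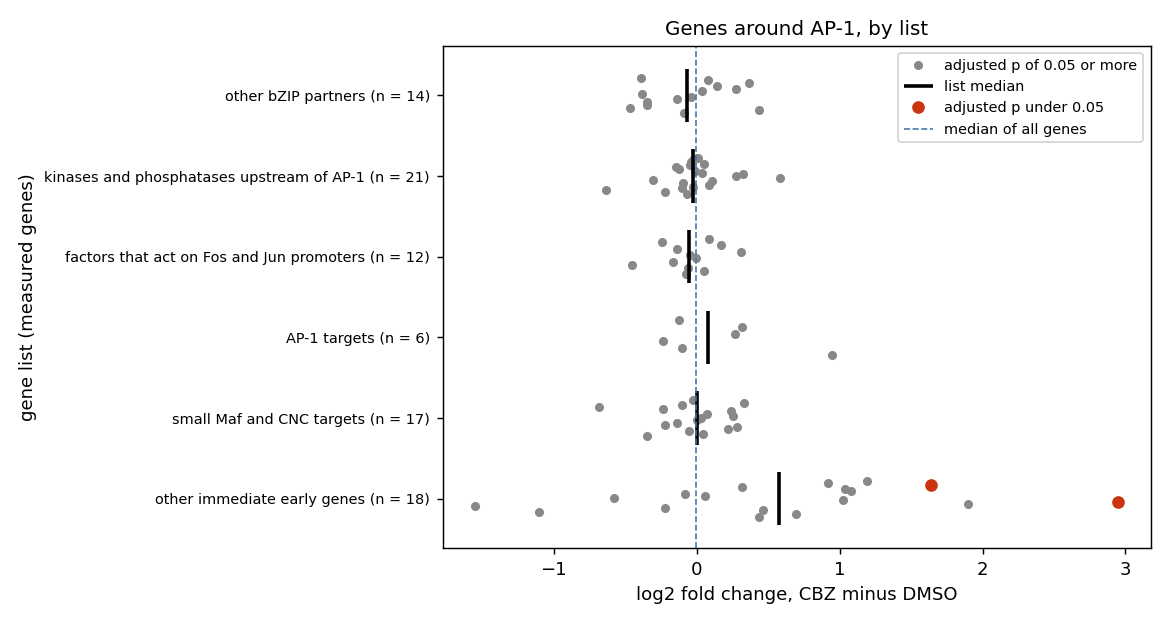
Log2 fold change, CBZ minus DMSO (x axis), of each measured gene (points) in the 6 lists of genes around AP-1 (y axis); black bars are list medians, the dashed line is the median of all genes, and red points passed limma's adjusted threshold of 0.05. The list medians run from -0.06 to 0.08 except for the other immediate early genes, at 0.58, where Gadd45b and Myc are the red points.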

How the data were processed

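Per the file headers, the authors extracted each scan with Agilent Feature Extraction 10.7.3.1, and the deposited processed intensity of a spot is linear, background-subtracted and detrended within the array. The deposited value table holds a ratio, since dividing the scanner values by each array's median gave it back and every column has a median of 1. Probe coordinates are those of the array design (mm9), and promoters come from RefSeq tables on GRCm38.p6.

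Control and outlier spots were left out, and the 75th percentile of its log2 intensities was taken from each array. Spots of a probe were averaged, and the 22352 probes that were well above background in all 3 mice of either group entered the test. The comparison used limma 3.58.1 under R 4.3.3 (lmFit and eBayes, two-sided), and p-values were adjusted over these probes by Benjamini-Hochberg and read at 0.05. The fit was tested on simulated data. Of the 14 member probes 13 matched RefSeq by accession and 1 by symbol. All members were named, and of each list the calls and the 3 smallest p. The genes most like the member with the largest SD and the one with the largest fold change were also named, and Jun was both. The members and lists were chosen with earlier results of these data known. Alternatives were normexp (offset 50), quantile, median and detected-spot scaling, no filter, detection on all 6 arrays, robust eBayes with an intensity trend, the deposited table, slide row, the replicate block and leaving out each mouse. The mean of a gene's probes was tried for the lists.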

Additional observations from a re-analysis of the deposited data

How the results depend on the processing

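For the 10 member probes, 11 alternatives could move the log2 fold change, and 106 of 110 values kept their direction, with 0 past an adjusted p of 0.05 in limma. The other filters, the trend and the replicate block change only the p, and the authors' table repeats median scaling. Of the 40 p-values of the former, 1 passed (Fosl2 with the intensity trend and robust eBayes). The 4 that turned were these: with slide row as a covariate Jund was at -0.032, Maff at -0.022 and Mafk at -0.044, and without CBZ replicate 3 Mafk was at -0.046 (-0.046 to 0.26 with any 1 mouse left out). Leaving out 1 mouse called 0 member probes each time. Over the whole array limma called 14 probes, and 130 with normexp, 7 with quantile normalization, 131 with median scaling and with the authors' table, 6 with scaling over detected spots, 43 with the filter on all 6 arrays, 174 with the trend, 7 with slide row, and 0 with no filter, where 2613 had an unadjusted p under 0.05. With 1 mouse left out it called 0 (without DMSO replicate 3 or CBZ replicate 2, where 2830 and 2178 had an unadjusted p under 0.05) to 30 (without CBZ replicate 1). Rises were 85.7% of calls, against 58.5% with normexp, 71.4% with quantile, 45.8% with median and 100% with detected-spot scaling, 72.1% with the filter on all 6 arrays, 47.7% with the trend and 57.1% with slide row, which rests on CBZ mouse 1 alone. Median scaling moved the median of all probes by -0.11, and its test had 89408 degrees of freedom against 8.62, which is a variance common to all probes. Over the lists 2 genes were called, both higher, and 4 with normexp (2 lower), 2 with quantile (1 lower), 3 with the filter on all 6 arrays and with the trend (1 lower each), 6 with median scaling and with the authors' table (2 lower), 1 with detected-spot scaling and with slide row, 0 with no filter (17 at an unadjusted p under 0.05), and 0 to 3 with 1 mouse left out. The lower ones were Ccn1 and Egr1. The labels state no pairing of the mice by replicate number. Deviations of same-numbered mice correlated across probes at -0.24, 0.016 and 0.18, and those of mice with unlike numbers at -0.35 to 0.38. The deviations within a group sum to 0 for each probe, so these values cannot exclude a pairing. With the replicate block 10 probes, 0 member probes and 2 list genes were called. The cause of these changes was not tested.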
